A study of Rattus norvegicus with 6 samples.

Results

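ZIP and ZnT proteins are the main zinc carriers of animal cells, and 10 of their genes were followed here among the 34510 genes of an RNA sequencing table from neonatal rat ventricular cardiomyocytes. The genes were taken by symbol: the ZIP genes Slc39a1, Slc39a6, Slc39a7, Slc39a8, Slc39a10 and Slc39a14, and the ZnT genes Slc30a1, Slc30a5, Slc30a7 and Slc30a9. Each of the 10 symbols matched 1 row. The cells were heart muscle cells isolated from newborn rats, in 3 libraries titled Bgal and 3 titled Trim28. The design text names an adenovirus that carries TRIM28, a corepressor that acts on chromatin. What Bgal stands for and what those cells were given is not spelled out in the labels, nor is a dose, time, litter or batch. Nothing in the labels says that the libraries came from separate cultures, so the p-values reflect the spread between these 6 samples alone, and that spread may be technical.

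ZIP proteins move zinc into the cytosol, from outside the cell or out of organelles, and most ZnT proteins move it the other way. Free zinc in the cytosol is kept low, and metallothioneins are among the proteins that bind it. ZIP8 and ZIP14, the proteins of Slc39a8 and Slc39a14, also carry iron, manganese and cadmium, which ties the family to the iron supply of heart muscle cells. When cytosolic zinc rises, the zinc-sensing transcription factor MTF-1 binds metal response elements and raises metallothionein genes and the zinc exporter gene Slc30a1.

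The windows of 300 bases around the start of Slc30a1, Mt2A and Slc39a7 are shown because Slc30a1 and the metallothionein gene Mt2A are the textbook targets of MTF-1, and because Slc39a7 had the most matches among the 10 genes. They come from RefSeq, build GRCr8, and run from 250 bases before the start to 50 after it, in the direction of the gene. Capitals mark the metal response element core TGCACNC or TGCGCNC on either strand. Overlapping or adjacent matches run together.
Slc30a1, chr13:106021769-106022068, plus strand: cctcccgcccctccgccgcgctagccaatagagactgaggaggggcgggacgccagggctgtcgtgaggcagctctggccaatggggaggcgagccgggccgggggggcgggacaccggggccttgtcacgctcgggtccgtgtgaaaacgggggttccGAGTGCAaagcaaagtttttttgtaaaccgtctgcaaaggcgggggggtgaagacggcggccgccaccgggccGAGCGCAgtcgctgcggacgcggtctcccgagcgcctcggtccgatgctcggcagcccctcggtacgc
Mt2A, chr19:10838659-10838958, minus strand: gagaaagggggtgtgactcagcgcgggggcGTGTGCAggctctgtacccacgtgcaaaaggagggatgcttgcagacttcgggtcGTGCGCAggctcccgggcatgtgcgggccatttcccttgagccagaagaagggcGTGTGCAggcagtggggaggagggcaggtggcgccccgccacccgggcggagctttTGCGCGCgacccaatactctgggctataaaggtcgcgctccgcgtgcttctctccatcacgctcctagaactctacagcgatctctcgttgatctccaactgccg
Slc39a7, chr20:4824809-4825108, plus strand: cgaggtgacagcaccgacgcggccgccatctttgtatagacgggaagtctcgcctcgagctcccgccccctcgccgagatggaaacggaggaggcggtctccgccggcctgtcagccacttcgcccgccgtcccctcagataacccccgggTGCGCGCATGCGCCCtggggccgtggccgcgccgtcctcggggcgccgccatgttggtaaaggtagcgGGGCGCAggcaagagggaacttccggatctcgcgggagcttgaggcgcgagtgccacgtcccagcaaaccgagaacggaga
At least 1 match stood in 24.2% of all 33469 windows of this length, at least 2 in 6.36% and at least 4 in 0.439%. The core is rich in G and C. These bases made up 69.3%, 70.3% and 63.7% of the printed windows of Slc39a7, Slc30a1 and Mt2A, against a median of 51.7% over all windows. The shares over all windows do not allow for this. Of the 10 genes, 8 had a window in the table, and 4 of these held a match: Slc39a7 with 4, in each of its 2 windows, Slc30a1 and Slc30a5 with 2 each, and Slc39a1 with 1. The 2 matches of Slc30a5 overlap on opposite strands, as do 2 of those of Slc39a7. Windows of Slc39a6, Slc39a8, Slc39a10 and Slc30a9 held none. Those of Slc39a8 and Slc39a10 lie at starts 84505 and 74152 bases away from where the RefSeq gene begins.

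Changes were called mostly among the ZIP genes. Of the 6 ZIP genes, 5 were higher in the Trim28 libraries and 0 were lower, while of the 4 ZnT genes 0 were higher and 1 was lower (limma on log2(FPKM + 1), two-sided, Benjamini-Hochberg adjustment over 14808 tested genes, adjusted p below 0.05). Over all tested genes, 20.1% were called higher and 21.1% lower, 41.2% in either direction. FPKM scales fragments to gene length and library size, which allows levels of different genes to be compared. The median log2 change was 0.50 over the 6 ZIP genes and 0.00 over the 4 ZnT genes (-0.02 over all tested genes). In 7 of the 10 genes the values of the groups did not overlap, 5 with the Trim28 libraries higher and 2 with them lower, against 53.8% of all tested genes (26.0% higher and 27.7% lower). All 10 passed the filter on low values in every library, with between 231 and 7300 reads per gene and library. In bulk RNA, more cells of a type and more RNA per cell cannot be told apart.

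**Figure D1:**
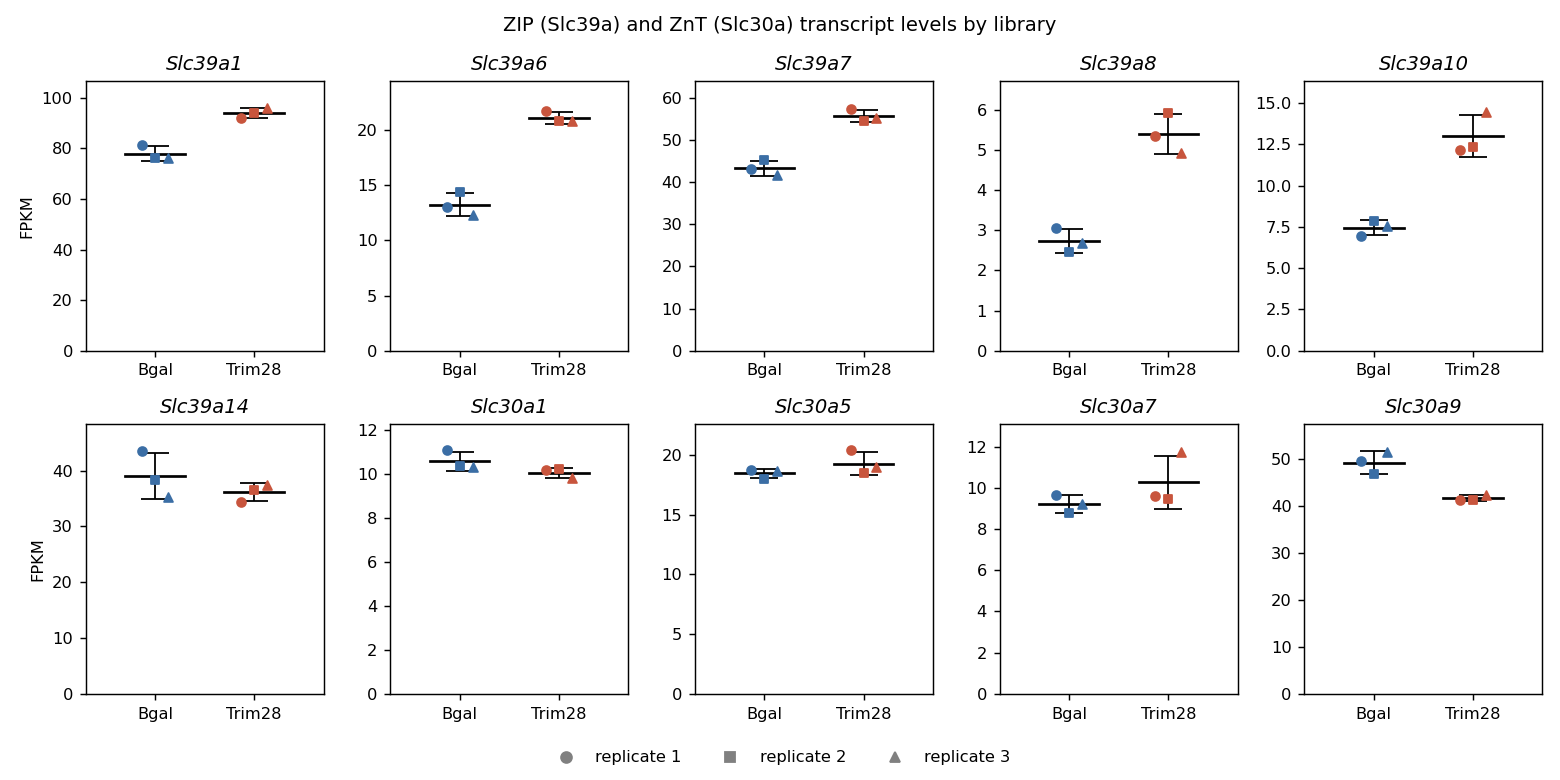
FPKM (y axis, from 0) of the 10 genes in each of the 3 Bgal and 3 Trim28 libraries; points are libraries, the wide bar is the mean and the error bar the SD. Slc39a1, Slc39a6, Slc39a7, Slc39a8 and Slc39a10 lie higher in all 3 Trim28 libraries than in any Bgal library, and Slc30a9 lies lower.

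With all libraries, the largest log2 change of the 10 was that of Slc39a8, which encodes ZIP8, a carrier of zinc, iron and manganese at the cell surface (ENSRNOG00000012508, chromosome 2, 241029693 to 241092582, plus strand). It stood at 3.05, 2.45 and 2.67 FPKM in Bgal replicates 1 to 3 and at 5.35, 5.93 and 4.92 FPKM in Trim28 replicates 1 to 3. Every Trim28 library was above every Bgal library. Slc39a8 was the lowest of the 10 in both groups, and rose 1.98-fold (log2 change 0.78, SE 0.10, limma adjusted p = 0.00100). Adding 1 to low FPKM values shrinks the log2 change, which was 0.96 with 0.1 added instead. Slc39a10 came first when Bgal replicate 2 was left out (log2 change 0.76 against 0.73 for Slc39a8) or Trim28 replicate 2 (0.76 against 0.72).

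Slc39a14 encodes ZIP14, a close relative of ZIP8 that likewise carries iron and manganese (ENSRNOG00000009832, chromosome 15, 51982982 to 52029816, minus strand). Its levels were 43.4, 38.3 and 35.3 FPKM in the Bgal libraries and 34.4, 36.5 and 37.5 FPKM in the Trim28 libraries. The groups overlapped, and the highest value was that of Bgal replicate 1. Its log2 difference was -0.10, with a 95% confidence interval from -0.29 to 0.08, and missed the threshold (limma adjusted p = 0.325). Slc39a14 thus stood 14.2, 15.6 and 13.2 times above Slc39a8 per kilobase in the Bgal libraries, and 6.42, 6.16 and 7.61 times above it in the Trim28 libraries. ZIP14 transcript was the more abundant of both in all 6 libraries.

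Slc39a6 and Slc39a10 encode ZIP6 and ZIP10, near relatives that assemble with each other at the plasma membrane. Slc39a10 (ENSRNOG00000011677, chromosome 9, 60021534 to 60070552, plus strand) stood at 6.95, 7.83 and 7.56 FPKM in the Bgal libraries and at 12.2, 12.4 and 14.5 FPKM in the Trim28 libraries. It rose 1.75-fold (log2 change 0.73, SE 0.08, limma adjusted p = 0.00065), and its highest value was that of Trim28 replicate 3. Slc39a6 (ENSRNOG00000028703, chromosome 18, 16522982 to 16543992, minus strand) stood at 13.1, 14.4 and 12.3 FPKM and at 21.7, 20.8 and 20.8 FPKM, and rose 1.60-fold (log2 change 0.64, SE 0.07, limma adjusted p = 0.000427). The Trim28 libraries lay close together and far above the Bgal libraries. The ratio of Slc39a10 to Slc39a6 was 0.564 ± 0.0442 in the Bgal libraries and 0.616 ± 0.0711 in the Trim28 libraries (SD, n = 3 each), and these ratios, chosen after the values were seen, overlapped between the groups.

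Slc39a7 and Slc39a1 rose as well. Slc39a7 encodes ZIP7, which releases zinc from the endoplasmic reticulum and Golgi into the cytosol (ENSRNOG00000000465, chromosome 20, 3819414 to 3822778, minus strand). It stood at 43.1, 45.1 and 41.6 FPKM in the Bgal libraries and at 57.3, 54.4 and 55.2 FPKM in the Trim28 libraries, 1.29-fold higher (log2 change 0.36, SE 0.05, limma adjusted p = 0.00111). Slc39a1 encodes ZIP1, a widely expressed importer of the plasma membrane (ENSRNOG00000059463, chromosome 2, 189609800 to 189615366, plus strand). Its levels were 81.4, 76.2 and 76.2 FPKM against 91.9, 93.8 and 95.9 FPKM, a rise of 1.20-fold (log2 change 0.27, SE 0.04, limma adjusted p = 0.00287). For both genes the groups did not overlap.

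Among the ZnT genes, Slc30a9 was the one that fell. Its protein ZnT9 exports zinc from mitochondria (ENSRNOG00000002246, chromosome 14, 42465807 to 42520020, minus strand). The Bgal libraries held 49.6, 46.8 and 51.6 FPKM and the Trim28 libraries 41.3, 41.4 and 42.5 FPKM, which is 1.18-fold lower (log2 change -0.24, SE 0.05, limma adjusted p = 0.0072). All 3 Trim28 values were below all 3 Bgal values.

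Slc30a1 encodes ZnT1, the zinc exporter of the plasma membrane (ENSRNOG00000004749, chromosome 13, 110677810 to 110681683, plus strand). It stood at 11.1, 10.3 and 10.3 FPKM in the Bgal libraries and at 10.2, 10.2 and 9.80 FPKM in the Trim28 libraries. The Trim28 values were all below the Bgal values, by little, and the log2 difference was -0.07, with a 95% confidence interval from -0.21 to 0.07 (limma adjusted p = 0.413, not passed). The table holds an unnamed row on the opposite strand that overlaps Slc30a1 by 580 bases, AABR07022168.1, at no more than 0.362 FPKM.

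Slc30a5 and Slc30a7 encode ZnT5 and ZnT7, which load zinc into the Golgi and the early secretory pathway, where zinc enzymes are assembled. Slc30a5 (ENSRNOG00000018746, chromosome 2, 30815703 to 30846149, minus strand) stood at 18.7, 18.0 and 18.6 FPKM and at 20.4, 18.5 and 19.0 FPKM, which left a log2 difference of 0.06 with a 95% confidence interval from -0.07 to 0.19 (limma adjusted p = 0.425, not passed). Slc30a7 (ENSRNOG00000013912, chromosome 2, 218888431 to 218951030, minus strand) had 9.63, 8.79 and 9.22 FPKM in the Bgal libraries and 9.59, 9.44 and 11.7 FPKM in the Trim28 libraries. Among the latter, replicate 3 alone stood above the Bgal range. The log2 difference was 0.14 with a 95% confidence interval from -0.08 to 0.35 (limma adjusted p = 0.274, not passed), and 0.04 without that library. Both genes overlapped between the groups.

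The order of the levels shifted accordingly. In the Bgal libraries, mean FPKM ran from Slc39a1 (77.9 ± 3.05) over Slc30a9 (49.3 ± 2.40), Slc39a7 (43.3 ± 1.76) and Slc39a14 (39.0 ± 4.14) to Slc30a5 (18.4 ± 0.393), Slc39a6 (13.2 ± 1.05), Slc30a1 (10.6 ± 0.437), Slc30a7 (9.22 ± 0.418), Slc39a10 (7.45 ± 0.448) and Slc39a8 (2.73 ± 0.303). Of these neighbours, Slc39a7 and Slc39a14 overlapped in their library values. In the Trim28 libraries Slc39a7 (55.7 ± 1.52) stood above Slc30a9 (41.7 ± 0.644), Slc39a6 (21.1 ± 0.538) above Slc30a5 (19.3 ± 0.997), and Slc39a10 (13.0 ± 1.28) above Slc30a7 (10.3 ± 1.29) and Slc30a1 (10.1 ± 0.227). Slc30a7 and Slc30a1 were then the neighbours that overlapped. Slc39a1 remained highest (93.9 ± 1.98), ahead of Slc39a14 (36.1 ± 1.59) and of Slc39a8, still lowest (5.40 ± 0.504; SD, n = 3 each).

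Summed over the 6 genes, ZIP transcript stood at 191, 184 and 176 FPKM in the Bgal libraries and at 223, 224 and 229 FPKM in the Trim28 libraries. The 4 ZnT genes summed to 89.0, 84.0 and 89.8 FPKM and to 81.5, 79.5 and 83.0 FPKM. The ratio of both sums, which does not depend on the scaling of a library, was 2.10 ± 0.126 in the Bgal libraries and 2.77 ± 0.0425 in the Trim28 libraries (SD, n = 3 each), with no overlap. These sums are descriptions and were not tested. Over all 10 ZnT genes of the table the sums overlapped, at 130.4 to 134.9 FPKM in the Bgal and 131.1 to 132.8 FPKM in the Trim28 libraries, while all 14 ZIP genes summed to 222 to 236 FPKM and 272 to 283 FPKM. Slc39a1 made up 42.4% ± 1.04 and 41.7% ± 0.392 of the ZIP sum, and these shares overlapped between the groups. The mean sum of the 4 ZnT genes went from 87.6 to 81.3 FPKM, and that of Slc30a9 alone from 49.3 to 41.7 FPKM. Mean Slc30a1 was lower by little, at 10.6 and 10.1 FPKM, and mean Slc30a5 and Slc30a7 were higher in the Trim28 libraries.

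**Figure D2:**
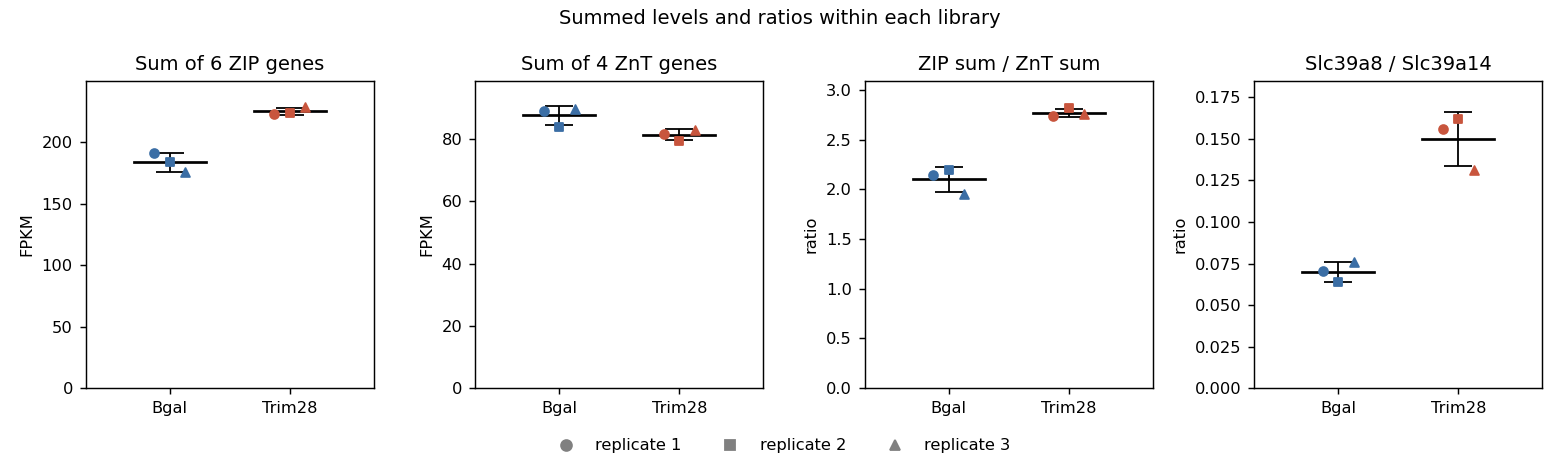
Summed FPKM of the 6 ZIP and of the 4 ZnT genes, their ratio, and the ratio of Slc39a8 to Slc39a14 (y axes, from 0) in each library; points are libraries, the wide bar is the mean and the error bar the SD. The ZIP to ZnT ratio lies between 1.96 and 2.19 in the Bgal libraries and between 2.73 and 2.82 in the Trim28 libraries, and the ratio of Slc39a8 to Slc39a14 between 0.064 and 0.0759 and between 0.131 and 0.162.

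The Trim28 libraries were unequal in Trim28 itself, with 2923, 2890 and 980 FPKM in replicates 1 to 3 against 77.6 to 87.8 FPKM in the Bgal libraries, in the direction of the labels. Trim28 replicate 3, with the least Trim28, had the lowest Slc39a8, Slc39a6 and Slc30a1 of its group and the highest Slc39a10, Slc39a1, Slc39a14, Slc30a7 and Slc30a9. Without it, the log2 changes of Slc39a8, Slc39a10 and Slc39a6 were 0.83, 0.65 and 0.65, and all 10 genes kept their calls.

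The remaining 14 ZIP and ZnT genes of the table were examined in the same fit. The test covered 9 of them, of which 4 rose, 1 fell and 4 missed the threshold (median log2 change 0.12; 20.1% higher and 21.1% lower over all tested genes). Without a filter on low values, 3 of 12 rose and 2 fell, where 11.7% and 11.6% of all genes did. Slc39a11, which encodes the intracellular zinc carrier ZIP11, rose from 2.10 ± 0.194 to 3.58 ± 0.308 FPKM (limma adjusted p = 0.00355). Slc39a13, whose protein ZIP13 releases zinc from intracellular vesicles and is needed in connective tissue, rose from 19.0 ± 0.935 to 24.8 ± 1.82 FPKM (limma adjusted p = 0.00485). Slc39a5, for the importer ZIP5, rose from 3.07 ± 0.283 to 4.32 ± 0.363 FPKM (limma adjusted p = 0.0155), a call lost without Bgal replicate 1 (0.0548) or without Trim28 replicate 1 (0.0504), within a range from 0.00751. Its row overlaps Ankrd52 on the opposite strand by 13 bases. Slc39a2, for the importer ZIP2, was the one that fell, from 1.88 ± 0.0539 to 0.885 ± 0.289 FPKM (limma adjusted p = 0.00869).

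Over all 12 tested ZIP genes, there were 8 that rose, 1 that fell and 3 that missed the threshold, with a median log2 change of 0.36 (20.1% higher and 21.1% lower over all tested genes). Over all 7 tested ZnT genes, the numbers were 1, 1 and 5, with a median of 0.03. The ZnT gene that rose was Slc30a3, for ZnT3, known from synaptic vesicles of neurons, at 24.6 ± 1.61 and 29.9 ± 3.30 FPKM (limma adjusted p = 0.0434), although its groups overlapped. Its call held in 9 of 15 alternatives, with adjusted p between 0.0115 and 0.125, and was lost with no filter (0.0836), with no intensity trend (0.0703) and without Bgal replicate 1 (0.125), Bgal replicate 3 (0.111), Trim28 replicate 1 (0.11) or Trim28 replicate 2 (0.125). Slc30a6, the partner of Slc30a5 in the early secretory pathway, had 8.48 ± 0.808 and 8.77 ± 1.62 FPKM, which missed the threshold (limma adjusted p = 0.859). Slc39a12 and Slc30a8 were listed at 0 in all libraries.

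**Figure D3:**
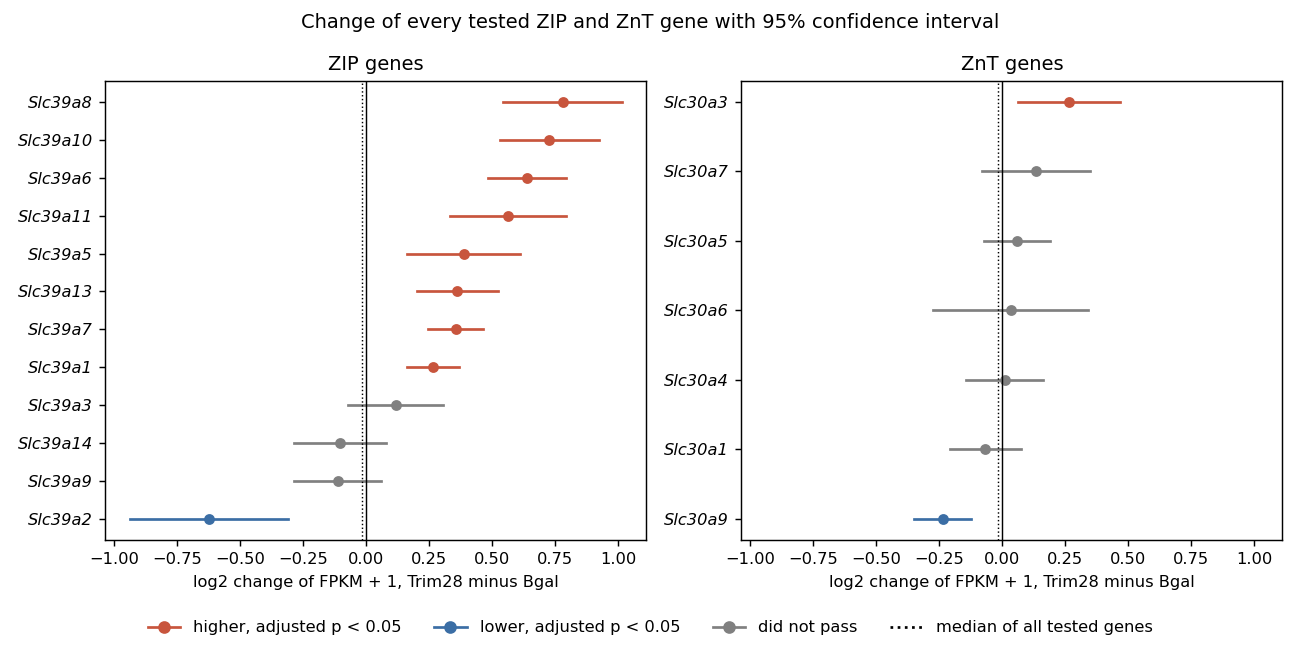
Log2 change of FPKM + 1 (x axis, Trim28 minus Bgal) with its 95% confidence interval for the 12 tested ZIP genes and the 7 tested ZnT genes; the dotted line is the median of all tested genes, at -0.02. On the ZIP side 8 of 12 intervals lie above 0 with an adjusted p below 0.05, and on the ZnT side 1 of 7.

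Of the genes that buffer and sense zinc the table holds 8, and without a filter on low values 3 of 7 rose and 2 fell, where 11.7% and 11.6% of all genes did. The 8 include the Mt1m row, a pseudogene in RefSeq, and the 3 that rose include the Mt1 row, which is uncertain. The 2 that fell include Mt3, near the floor with 4, 2 and 2 reads in the Bgal libraries and 0 in each Trim28 library. With the filter 6 were tested, but Gpr39 and Mt1m entered through their Trim28 levels and Tmem163 through its Bgal levels, so their calls are given singly. Mt2A, a metallothionein that binds zinc in the cytosol (ENSRNOG00000043098, chromosome 19, 11307967 to 11308740, minus strand), stood at 75.0, 72.6 and 77.9 FPKM in the Bgal libraries and at 184, 181 and 173 FPKM in the Trim28 libraries. That was a rise of 2.39-fold (log2 change 1.25, SE 0.05, limma adjusted p = 1.42e-05), without overlap. Slc30a1, the other textbook target of MTF-1 printed above, did not pass in the same libraries. Whether zinc or MTF-1 had a part in either level was not tested. Mtf1 itself had 0.528 ± 0.446 and 0.65 ± 0.241 FPKM, which missed the threshold (limma adjusted p = 0.652).

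The row named Mt1 went from 11.0 ± 0.157 to 13.3 ± 0.97 FPKM (limma adjusted p = 0.0211). It is uncertain, because metallothionein copies share sequence and the row lies on chromosome 17 inside Dclre1c on the other strand. RefSeq places Mt1 on chromosome 19 and lists a pseudogene, Mt1-ps3, on chromosome 17, of 389 bases like the row. The call of the Mt1 row was lost in limma-voom on recovered reads (0.204) and on leaving out Bgal replicate 1 (0.059), replicate 3 of the same group (0.0577) or Trim28 replicate 1 (0.0694), within a range from 0.0174. Gpr39, a receptor for extracellular zinc, rose from 0.517 ± 0.284 to 1.89 ± 0.294 FPKM (limma adjusted p = 0.00378). Tmem163, for a zinc carrier found on vesicles, fell from 1.30 ± 0.188 FPKM to 0.533 ± 0.0863 FPKM (limma adjusted p = 0.0066). Mt1m, a pseudogene in RefSeq, at 0.505 ± 0.122 and 1.32 ± 0.891 FPKM, missed the threshold (limma adjusted p = 0.108).

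Of 14 tested carriers and chaperones of other metals, 5 rose, 2 fell and 7 did not pass (median log2 change -0.02), beside 20.1% higher and 21.1% lower over all tested genes. Slc11a1, a divalent metal carrier of phagocytes, rose from 1.13 ± 0.218 to 3.30 ± 0.173 FPKM (limma adjusted p = 0.0005). The magnesium carrier gene Slc41a1 fell from 40.5 ± 1.47 to 29.9 ± 0.553 FPKM (limma adjusted p = 0.000511). Ccs, which delivers copper to superoxide dismutase, fell from 21.0 ± 1.52 to 15.6 ± 0.854 FPKM (limma adjusted p = 0.00335). Of the 5 that rose, the count was 3 in limma-voom on recovered reads, with no filter, with the replicate block and without Bgal replicate 1, Trim28 replicate 2 or Trim28 replicate 3, and 2 without Bgal replicate 3 or Trim28 replicate 1.

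**Figure D4:**
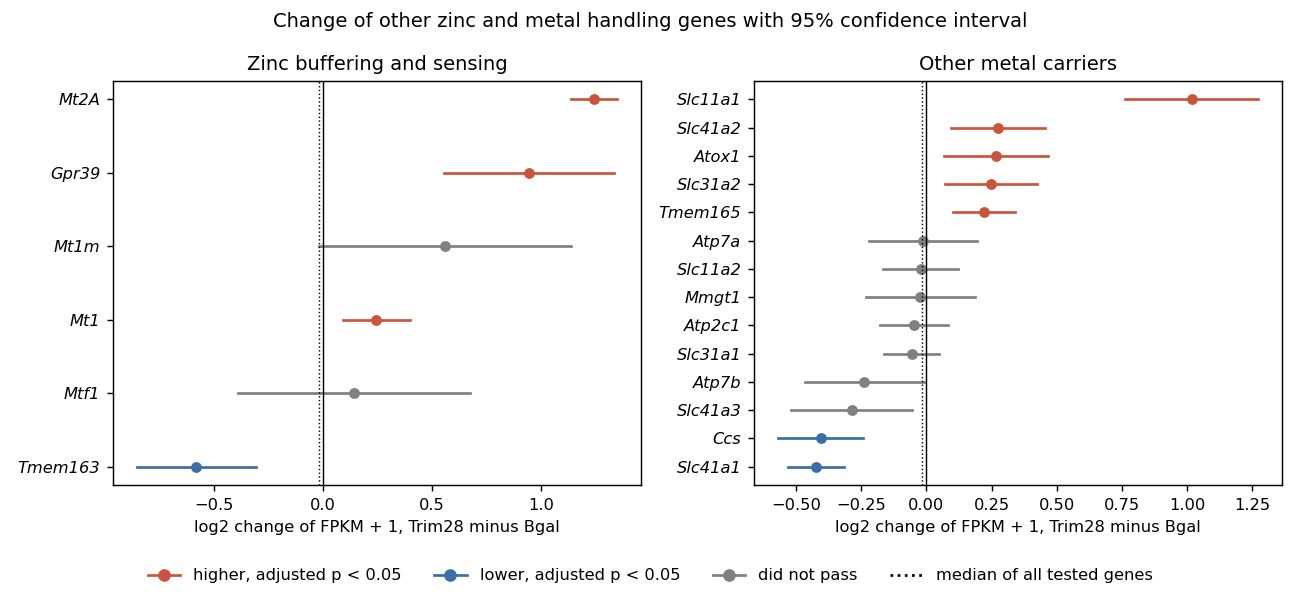
Log2 change of FPKM + 1 (x axis, Trim28 minus Bgal) with its 95% confidence interval for tested genes of zinc buffering and sensing (left) and for other metal carriers (right); the dotted line is the median of all tested genes. Mt2A, at 1.25, and Slc11a1, at 1.02, stand at the top of their panels, and Tmem163, Ccs and Slc41a1 lie below 0 with an adjusted p below 0.05.

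Markers of other cell types moved in the same libraries as these genes. Over all tested genes 20.1% were called higher and 21.1% lower, and without a filter 11.7% and 11.6%. Cardiomyocyte markers were at high levels in all libraries, with a summed 16031 to 17035 FPKM in the Bgal and 16506 to 17838 FPKM in the Trim28 libraries. Of 9 tested, 3 rose (Myh7, Actn2 and Nppa) and 4 fell (Tnni3, Tnnt2, Mybpc3 and Pln). The sum mixes both directions, as mean Nppa rose from 4335 to 6368 FPKM while mean Tnnt2 fell from 4471 to 3759 FPKM. Macrophage and leukocyte markers summed to 30.7 to 32.0 FPKM and 71.4 to 73.4 FPKM, and 7 of 7 tested rose (8 of 10 without a filter), among them Lyz2, Cd14 and Cd68. Of these 7, Adgre1 and Ptprc were tested on account of their Trim28 levels alone. C1qc, not tested, was at 0 in the Bgal libraries. Fibroblast markers summed to 680 to 731 FPKM and 1057 to 1124 FPKM, with 8 of 10 higher, among them Pdgfra, Dcn and Col1a1, and 0 lower. Smooth muscle and mural markers summed to 806 to 1056 FPKM and 1642 to 1740 FPKM, with 7 of 9 higher, among them Pdgfrb and Acta2, 1 lower, Abcc9, and Kcnj8 tested on account of its Trim28 levels. Endothelial markers summed to 11.0 to 11.7 FPKM and 11.4 to 11.9 FPKM, with Flt1 and Tek higher and Kdr lower of 3 tested. Mesothelial markers summed to 6.81 to 8.53 FPKM and 7.70 to 9.10 FPKM, with Wt1 and Msln higher and Upk3b lower of 5 tested, calls that held in 11, 10 and 8 of 14 alternatives. The part of these cells in the changes of the zinc carriers was not tested. Symbols Ttn and Pecam1 matched no row.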

How the data were processed

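Poly(A) RNA of neonatal rat ventricular cardiomyocytes was sequenced in read pairs in 6 libraries, grouped by their titles into 3 Bgal and 3 Trim28. The deposited table gives FPKM per gene and library, made by the authors and not pooled, per the file headers, with 0 columns of other samples. HISAT2 2.0.5 and DESeq2 are named in the submitters' processing notes. The sources used here do not give the counting tool or its strand, build and annotation. Gene coordinates are those of the table. After multiplying by gene length, 100% of values above 0 came out as whole reads (within 0.01 of a whole number), which put 26146166 to 34593292 reads on genes per library.

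The 14808 genes that reached 0.5 FPKM in 3 or more libraries were tested with limma 3.58.1 in R 4.3.3 on log2(FPKM + 1), with an intensity trend and Benjamini-Hochberg adjustment. The threshold was an adjusted p of 0.05. Folds are ratios of mean FPKM. The fit was also run on simulated data. All changes simulated there were larger than those of Slc39a1, Slc39a7 and Slc30a9, so it does not cover changes of their size. Within each group, libraries varied beyond counting noise (chi-square per degree of freedom 6.78 to 18.1), which does not show that they came from separate cultures. Each library was entered as 1 replicate.

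The 10 genes and all gene lists were chosen with earlier results of these data known. Named genes were all 10, the Trim28 gene, every changed gene among the other ZIP, ZnT, zinc buffering and sensing genes, and up to 3 with the smallest p of each remaining list (other metal carriers and the markers of cardiomyocytes, fibroblasts, mural cells, endothelium, macrophages and mesothelium). Mtf1, Mt1m, Mt3, Slc30a6, Slc39a12, Slc30a8, C1qc, Adgre1, Ptprc, Kcnj8, Nppa, Tnnt2, Mybpc3, Pln and the overlapping rows were added after their values were seen. Promoter windows are those of RefSeq on GRCr8, searched for 1 motif on both strands. The Slc39a7 window lies on the plus strand there, while the deposited coordinates put the gene on the minus strand. The reason was not tested. Alternatives were other pseudocounts (0.1 and 0.5), no filter or 2 FPKM, quantile or trimmed mean scaling, limma-voom on recovered reads, no trend, the replicate block, and leaving out each library.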

Additional observations from a re-analysis of the deposited data

How the results depend on the processing

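All 10 zinc carrier genes kept their direction and their side of the threshold in all 15 alternatives run. The 2 planned count-model tests were not run; limma-voom on recovered reads was. Over all genes, leaving out each library in turn gave 2329 to 2726 genes called higher and 2454 to 2917 called lower, against 2971 and 3126 with all libraries. With 2 libraries left in a group, the fit assumes that both groups vary alike. Among the other ZIP and ZnT genes, 2 to 4 rose when each library was left out in turn, with 2 without Bgal replicate 1 or Trim28 replicate 1, and the number that fell was 0 with the filter of 2 FPKM, which removes Slc39a2, and 2 with no filter, which adds genes. Among zinc buffering and sensing genes, the number that fell was 0 with the filter of 2 FPKM, which removes Tmem163, and 2 with no filter. Among other metal carriers, 3 rose in limma-voom on recovered reads, with no filter and with the replicate block, 2 to 4 rose when each library was left out in turn, and 4 fell in limma-voom; the cause was not tested. The same title numbers stand in both groups, but deviations from the group means of same-numbered libraries correlated at -0.016, 0.134 and 0.00915, so the numbers were not taken as pairs. With the replicate block, 2744 genes were called higher and 2922 lower. Among results of 32 other named genes under an alternative, 442 kept their call, 31 no longer passed and none reversed. That tally leaves out the named genes added after their values were seen, except AC128848.1. Of those left out, Mtf1 and Slc30a6, neither of them called, changed sign in some alternatives (lowest log2 change -0.06 for each). The calls of Tnnt2, Nppa and Ptprc held in 11 of 15, 14 of 15 and 13 of 14 alternatives. Low levels limit the zinc sensing genes, as Gpr39, Tmem163 and Mtf1 stand close to the filter.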

Other observations

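A row without a gene symbol, AC128848.1 (chromosome 19, 11302125 to 11302938, minus strand), carries a metallothionein domain in the table's description and lies on the same strand near Mt2A. The choice of this row followed a look at its values. It had 58.1, 48.0 and 40.0 FPKM in the Bgal libraries and 71.2, 69.9 and 56.8 FPKM in the Trim28 libraries, so that Bgal replicate 1 overlapped the Trim28 range. The log2 change of 0.44 passed (95% confidence interval 0.11 to 0.77, limma adjusted p = 0.04), and did so in 9 of 15 alternatives, with adjusted p between 0.00526 and 0.114. The call was lost with no filter, with no intensity trend, and without Bgal replicate 2 (0.0909), Bgal replicate 3 (0.0983), Trim28 replicate 1 (0.114) or Trim28 replicate 2 (0.113). The table's rows Mt1 and Mt1m, on chromosomes 17 and 20, stand where RefSeq lists a metallothionein pseudogene on the same chromosome (Mt1-ps3 and Mt1m), so neither row was taken as the level of the chromosome 19 gene. RefSeq has the Mt1 window (chromosome 19, 10832926 to 10833225) on the minus strand near that of Mt2A (10838659 to 10838958). AC128848.1 has a like place beside Mt2A, but whether it is the Mt1 gene of RefSeq was not tested. Within a library, Mt2A stood 6.51 to 7.18 times above the Mt1 row in the Bgal libraries and 12.8 to 14.5 times above it in the Trim28 libraries.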
